A study of Mus musculus with 8 samples.

Results

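The genes described here are 39 genes of the kidney proximal tubule, most of them enzymes or brush-border proteins and 1 a transcription factor, measured by RNA-Seq of whole kidneys from 8 mice. The members were given as a list of symbols, and each of the 39 matched a single gene ID in the files, of 55401 genes listed for each kidney. All 39 passed the filter on low counts, as did 14326 genes in all, and the lowest count of any member in any kidney was 27, for *Kynu*. The 4 control mice carried floxed alleles at 3 salt-inducible kinase loci, which the labels write SIK1f/f;SIK2f/f,SIK3f/f, without Cre recombinase. The 4 SIK mutant mice carried Six2-Cre in addition to the same alleles, per their labels. The text of the study instead gives one floxed and one intact *Sik1* allele for the mutants that survived. Six2-Cre acts in nephron progenitors, so nephron tubule cells and podocytes descend from recombined cells, whereas stromal, vascular and blood cells keep the floxed alleles. No age, sex, litter or batch of these mice is given in the labels. In the mutants, *Sik3* was 33.7 to 43.1 CPM (counts put on one library total by TMM factors), below all 4 controls at 58.6 to 66.5 CPM. *Sik2* was 4.50 to 9.30 CPM in mutants and 7.97 to 9.95 CPM in controls, with overlap, and *Sik1* was 43.4 to 54.1 and 36.8 to 43.1 CPM, higher in every mutant. Counts over whole genes do not show whether the floxed part was removed.

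The proximal tubule reclaims most of what the glomerulus filters. Its luminal membrane is folded into a brush border, where peptidases and other ectoenzymes split filtered peptides, glutathione and sugars so that the parts can be taken up. Inside the cell, mitochondrial, peroxisomal and cytosolic enzymes break down or remake amino acids, sugars and inositol, and hepatocyte nuclear factor 4 alpha, encoded by *Hnf4a*, is a transcription factor that maintains this program. The question put to the data was whether these genes are lower as a group in SIK mutant kidneys.

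Per kidney, 10179648 to 10925100 expected counts were available, so counting error is small for most members. Control 3 and control 4 had 0 and 2 counts over 4 Y-linked genes and *Xist* at 260.5 and 297.8 CPM, whereas the other 6 kidneys had 789 to 1064 Y-linked counts and *Xist* below 0.5 CPM. All 4 mutants were among the 6. The comparisons of genotype are therefore given over the 8 kidneys and again over the 6 kidneys with Y-linked reads, which hold 2 controls and 4 mutants. Over the 8 kidneys, members are compared by the edgeR quasi-likelihood test, with the false discovery rate (FDR) taken over all tested genes.

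Taken over all 8 kidneys, no member passed an FDR of 0.05 in either direction, and none of the 14326 tested genes did (0% called lower and 0% called higher). At an unadjusted p under 0.05, 4 of 39 members were lower in the mutants (*Acy1*, *Napsa*, *Hpd* and *Miox*) and 0 were higher, where 3.59% of all tested genes were lower and 2.76% higher at that p. Without control 1 the counts were 9 and 2, where 4.6% and 3.52% of all genes passed. The Wald test of DESeq2 called 1 member lower, *Acy1*, and 0 higher, with 0.3% of all genes called lower and 0.168% higher. In 2 members, *Acy1* and *Napsa*, all 4 mutants lay below all 4 controls, and in 0 all lay above, against 2.39% and 1.65% of all tested genes. The median log2 fold change of the 39 members was -0.07, that of all tested genes was -0.0038, and the sign of the members' median turned under limma-trend on TPM (0.10, with 0.09 over all genes) and under scaling by the library total (0.01, with 0.05 over all genes). The members' median thus lay 0.06 below that of all genes with the TMM factors, 0.03 below by the library total and 0.0093 above on TPM. Below 0 were 24 of 39 members, or 61.5%, and 50.8% of all tested genes. The 95% interval of the log2 fold change lay entirely above -1 for 32 of the 39 members. The other 7 were *Hpd*, *Kynu*, *Acy1*, *Cndp2*, *Dpys*, *Napsa* and *Hao2*. Intervals were not counted over all tested genes.

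**Figure D1:**
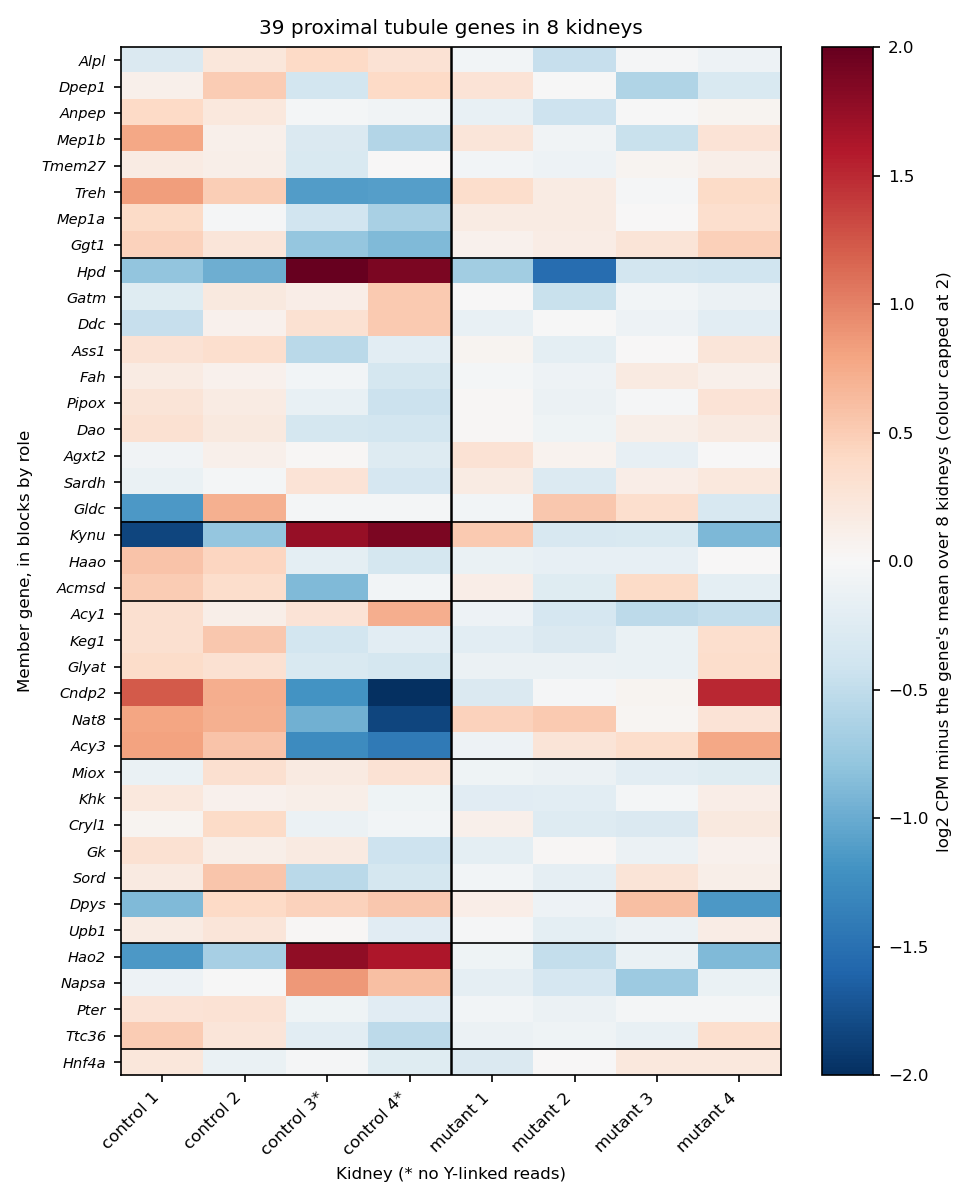
Colour shows the log2 CPM of each of the 39 members minus its mean over the 8 kidneys, with kidneys in columns (an asterisk marks the 2 controls without Y-linked reads) and genes in rows, in blocks by role, from top to bottom the brush border, amino acids, kynurenine, peptide and N-acyl amino acids, sugars, pyrimidines, other proximal genes and *Hnf4a*. *Hpd*, *Kynu* and *Hao2* are red and *Cndp2*, *Acy3* and *Nat8* blue in control 3 and control 4.

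Restricting the comparison to the 6 kidneys with Y-linked reads gave a lower median. It was -0.24 over the 39 members and 0.01 over the 14719 genes tested there, and 30 members, or 76.9%, lay below 0, with 48.3% of all genes. With scaling by the library total the members' median was -0.10 while that of all genes was 0.15, and on TPM the values were -0.03 and 0.17, so the distance between members and all genes was -0.25 under both the TMM factors and the library total and -0.20 on TPM. The TMM factors of control 1 and control 2, at 0.90 and 0.93, were below those of the other 6 kidneys, at 0.96 to 1.05.

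At an unadjusted p under 0.05, 8 of 39 members were lower in these 6 kidneys (*Anpep*, *Treh*, *Haao*, *Acy1*, *Nat8*, *Keg1*, *Pter* and *Ttc36*) and 1 was higher (*Kynu*), where 4.74% of all genes were lower and 6.4% higher. Without SIK mutant 4, 16 members were lower and 2 higher, where 7.08% and 8.34% of all genes passed, and without any of the other 5 kidneys the lower count was 6 to 9. The edgeR test called 0 members at an FDR of 0.05 in either direction, and of all genes 0.0272% lower and 0.115% higher. DESeq2 called 3 members lower (*Haao*, *Acy1* and *Pter*) and 0 higher, with 0.442% and 0.836% of all genes called. All 4 mutants lay below both of these controls in 12 members, or 30.8%, and above both in 0, where the shares of all genes were 11.5% and 10.3%. The 12 were *Anpep*, *Treh*, *Tmem27*, *Ass1*, *Dao*, *Haao*, *Acy1*, *Nat8*, *Gk*, *Upb1*, *Pter* and *Napsa*. The interval of the log2 fold change lay above -1 for 38 members, the exception being *Cndp2*, again without a count over all genes. With all 8 kidneys and a covariate for Y-linked expression, the median was -0.24 (-0.0024 over all genes), and 7 members were lower and 2 higher at p under 0.05, where 5.87% and 6.22% of all genes passed. In that fit 0 members were called at an FDR of 0.05, with 0.00698% of all genes called lower and 0.112% higher. No mutant lacked Y-linked reads, so the covariate largely takes up control 3 and control 4. The genotype term then rests on much the same contrast as over the 6 kidneys, and adds little separate evidence.

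**Figure D2:**
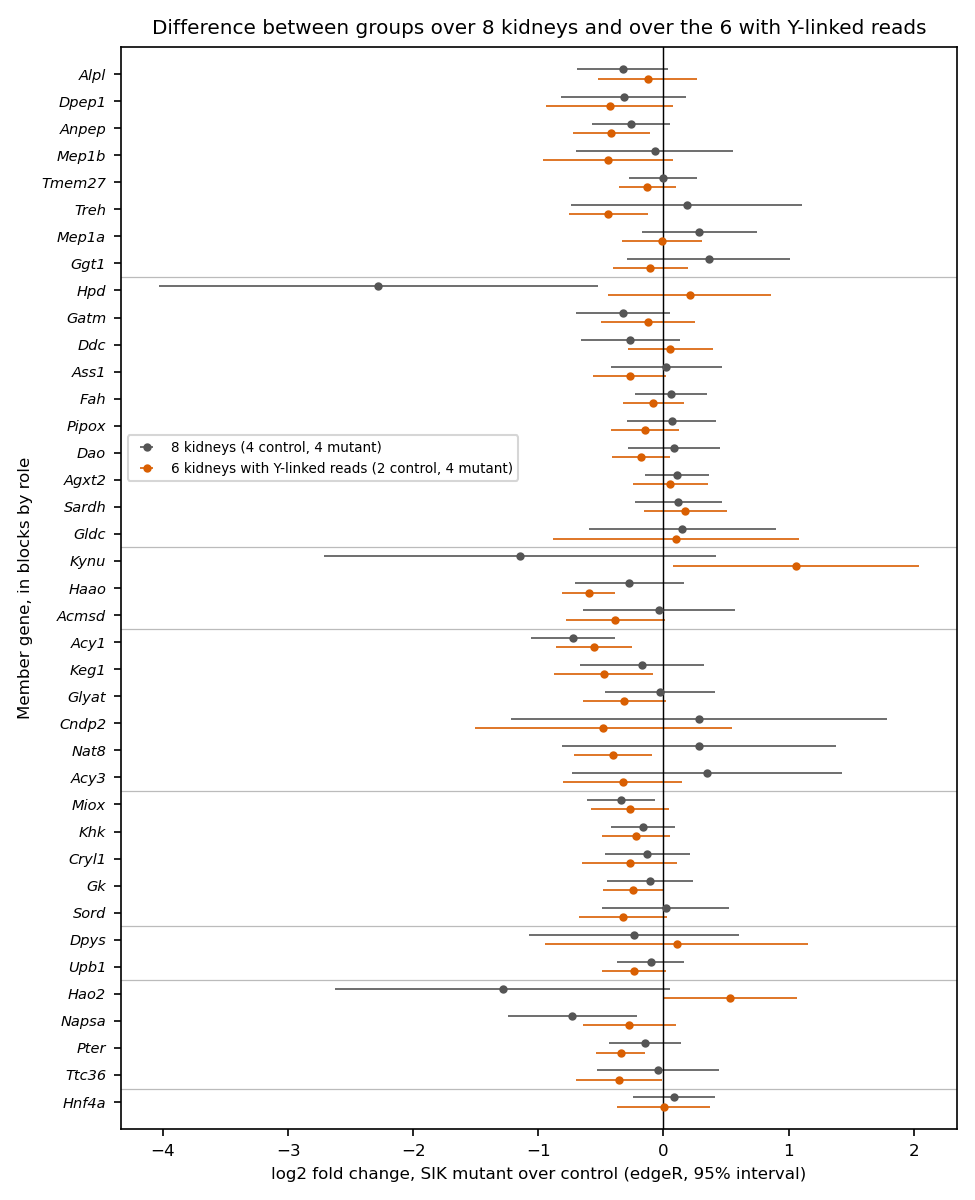
Points give the log2 fold change of SIK mutant over control by edgeR for each member, with bars for the unadjusted 95% interval, grey for the 8 kidneys and orange for the 6 with Y-linked reads. The orange points lie left of 0 for 30 of 39 members and the grey ones for 24, and *Hpd*, *Kynu* and *Hao2* move from the left to the right of 0 when control 3 and control 4 are left out.

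Other transcripts moved with genotype among these 6 kidneys. The 7 adipocyte markers summed to 22.3 and 31.2 CPM in control 1 and control 2, 300.9 and 69.0 CPM in control 3 and control 4, and 184.4 to 297.0 CPM in the mutants. All 7 were higher in the mutants at an unadjusted p under 0.05 over the 6 kidneys, 5 of them at an FDR of 0.05 by edgeR, and *Adipoq*, *Plin1*, *Cidec*, *Lep*, *Cfd* and *Ucp1* were at 0 in control 1. Their part in the lower member values was not tested. In whole kidney, fewer proximal tubule cells and less RNA per cell cannot be told apart.

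**Figure D3:**
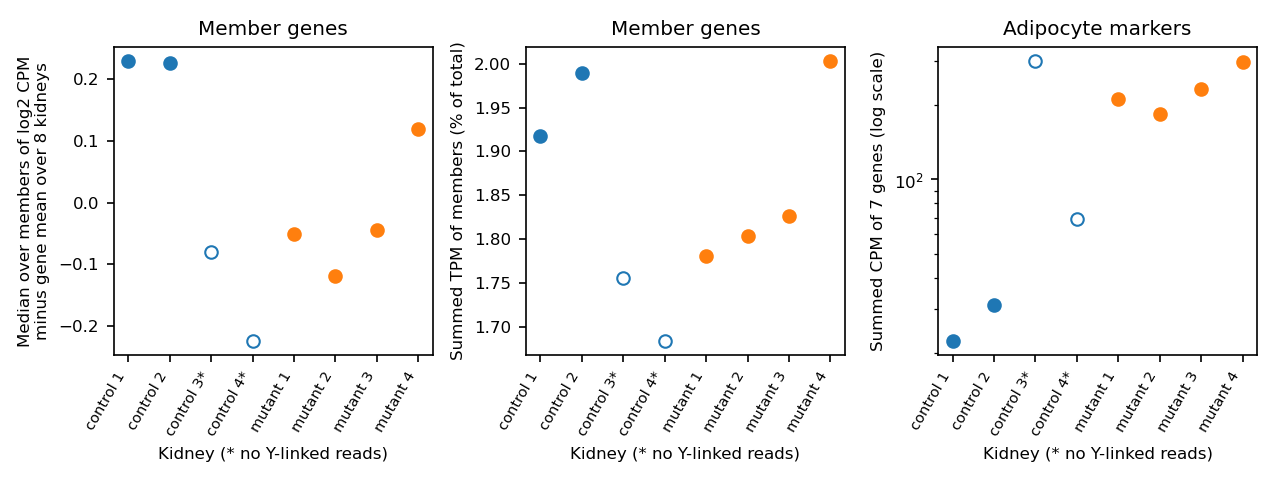
The left panel gives, for each kidney, the median over the 39 members of log2 CPM minus the gene's mean over 8 kidneys, the middle panel the summed TPM of the members as a percent of all TPM, and the right panel the summed CPM of 7 adipocyte markers on a log scale, with open symbols for kidneys without Y-linked reads. Control 1 and control 2 have the highest member medians and the lowest adipocyte sums. Control 4, with the next lowest adipocyte sum, has the lowest member median, and mutant 4 has the highest of both among the mutants.

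The members' median deviation was 0.23 in both control 1 and control 2, -0.08 and -0.22 in control 3 and control 4, and -0.05, -0.12, -0.04 and 0.12 in mutants 1 to 4. Control 1 and control 2 lay above every mutant, control 4 below every mutant and control 3 among them. As a share of all TPM, an abundance scaled for gene length, the members held 1.92% and 1.99% in control 1 and control 2, 1.76% and 1.68% in control 3 and control 4, and 1.78%, 1.80%, 1.83% and 2.003% in the mutants.

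*Acy1* (aminoacylase 1, ENSMUSG00000023262, chr9:106432981-106438319 on the minus strand of GRCm38) had the lowest p of all members over the 8 kidneys. Its enzyme frees amino acids from their N-acetylated form. It was 295.9, 257.4, 288.4 and 393.5 CPM in controls 1 to 4 and 222.4, 189.4, 165.9 and 170.9 CPM in mutants 1 to 4. Every mutant lay below every control, whether or not the control had Y-linked reads. The means were 308.8 ± 58.9 and 187.2 ± 25.6 CPM (SD, n = 4), a log2 fold change of -0.72 (SE 0.15, edgeR p = 0.000811, FDR 0.351), and the exact permutation p of 0.0286 is the smallest that 70 assignments can give. The DESeq2 FDR was 0.00359. Among the kidneys that had Y-linked reads, the value was -0.55 (SE 0.13, edgeR FDR 0.22, DESeq2 FDR 0.0132). Over all alternatives the log2 fold change ranged from -0.82 to -0.55 and the FDR from 0.00359 to 0.899.

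*Acy3*, a second aminoacylase, acts on the mercapturic acids made when glutathione conjugates are processed, and was the most abundant member with a mean of 2737 TPM. Its CPM was 3796 and 3208 in control 1 and control 2, 901.6 and 815.6 in control 3 and control 4, and 2020, 2600, 2775 and 3707 in the mutants. The mutants overlapped the first pair of controls and lay above the second. The log2 fold change was 0.35 (95% interval -0.73 to 1.42) over 8 kidneys and -0.33 (-0.80 to 0.15) over 6.

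*Cndp2*, a cytosolic dipeptidase, was 1190, 848.0, 222.4 and 126.9 CPM in the controls and 419.0, 502.4, 532.4 and 1452 CPM in the mutants. The controls split by Y-linked reads, and mutant 4 lay far above the other mutants. Its log2 fold change of 0.28 (95% interval -1.22 to 1.79) turned to -0.48 over 6 kidneys and to -0.30 without SIK mutant 4. The other enzymes of this role were *Nat8*, which acetylates cysteine conjugates, *Glyat*, which joins acyl groups to glycine, and *Keg1*. All 6 members of the role lay below 0 over the 6 kidneys, with log2 fold changes of -0.55 to -0.31, and 3 of 6 did over the 8 kidneys, where they ranged from -0.72 to 0.35.

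Of the 3 enzymes of the kynurenine pathway, which breaks down tryptophan, *Haao* makes the direct precursor of quinolinate, *Kynu* acts upstream of it, and *Acmsd* diverts the flow away from quinolinate. *Haao*, described in every kidney because of its DESeq2 call and so chosen after its values were seen, was 215.5 and 194.7 CPM in control 1 and control 2 and 127.4 and 113.6 CPM in control 3 and control 4. The mutants were at 132.6, 129.6, 129.5 and 146.8 CPM, below the first pair of controls and above the second. The log2 fold change was -0.60 over 6 kidneys (SE 0.09, edgeR FDR 0.0645, DESeq2 FDR 0.000125) and -0.27 over 8 (SE 0.19, edgeR FDR 0.864). *Kynu*, the least abundant member at 6.39 TPM, was 2.74 and 5.73 CPM in control 1 and control 2, 32.8 and 36.2 CPM in control 3 and control 4, and 5.29 to 14.0 CPM in the mutants. Its log2 fold change was -1.14 (SE 0.70) over 8 kidneys and 1.06 (SE 0.43, edgeR FDR 0.413) over 6. *Acmsd* had log2 fold changes of -0.04 and -0.38. The pathway's members therefore did not share a direction in the 6 kidneys.

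*Napsa*, the aspartic protease napsin A, was 2125, 2268, 4138 and 3454 CPM in the controls and 2005, 1792, 1373 and 2061 CPM in the mutants. All mutants lay below all controls, by a small margin where the controls had Y-linked reads. The means were 2996 ± 967 and 1808 ± 312 CPM (SD, n = 4), with a log2 fold change of -0.73 (SE 0.23, edgeR p = 0.0106, FDR 0.663) and an exact permutation p of 0.0286. With 6 kidneys the value was -0.27 (SE 0.16, edgeR FDR 0.56). *Hao2*, a peroxisomal oxidase of 2-hydroxy acids, was 87.5, 123.6, 668.2 and 598.3 CPM in the controls and 105.8 to 182.7 CPM in the mutants, and its log2 fold change of -1.29 (SE 0.60) became 0.53 (SE 0.24) over 6 kidneys. *Pter*, chosen like *Haao* after its values were seen, was 511.7, 518.1, 399.5 and 361.8 CPM in the controls and 389.3 to 410.4 CPM in the mutants. Its log2 fold change was -0.15 over 8 kidneys and -0.34 over 6 (SE 0.09, edgeR FDR 0.235, DESeq2 FDR 0.0419). *Ttc36* had -0.05 and -0.36.

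**Figure D4:**
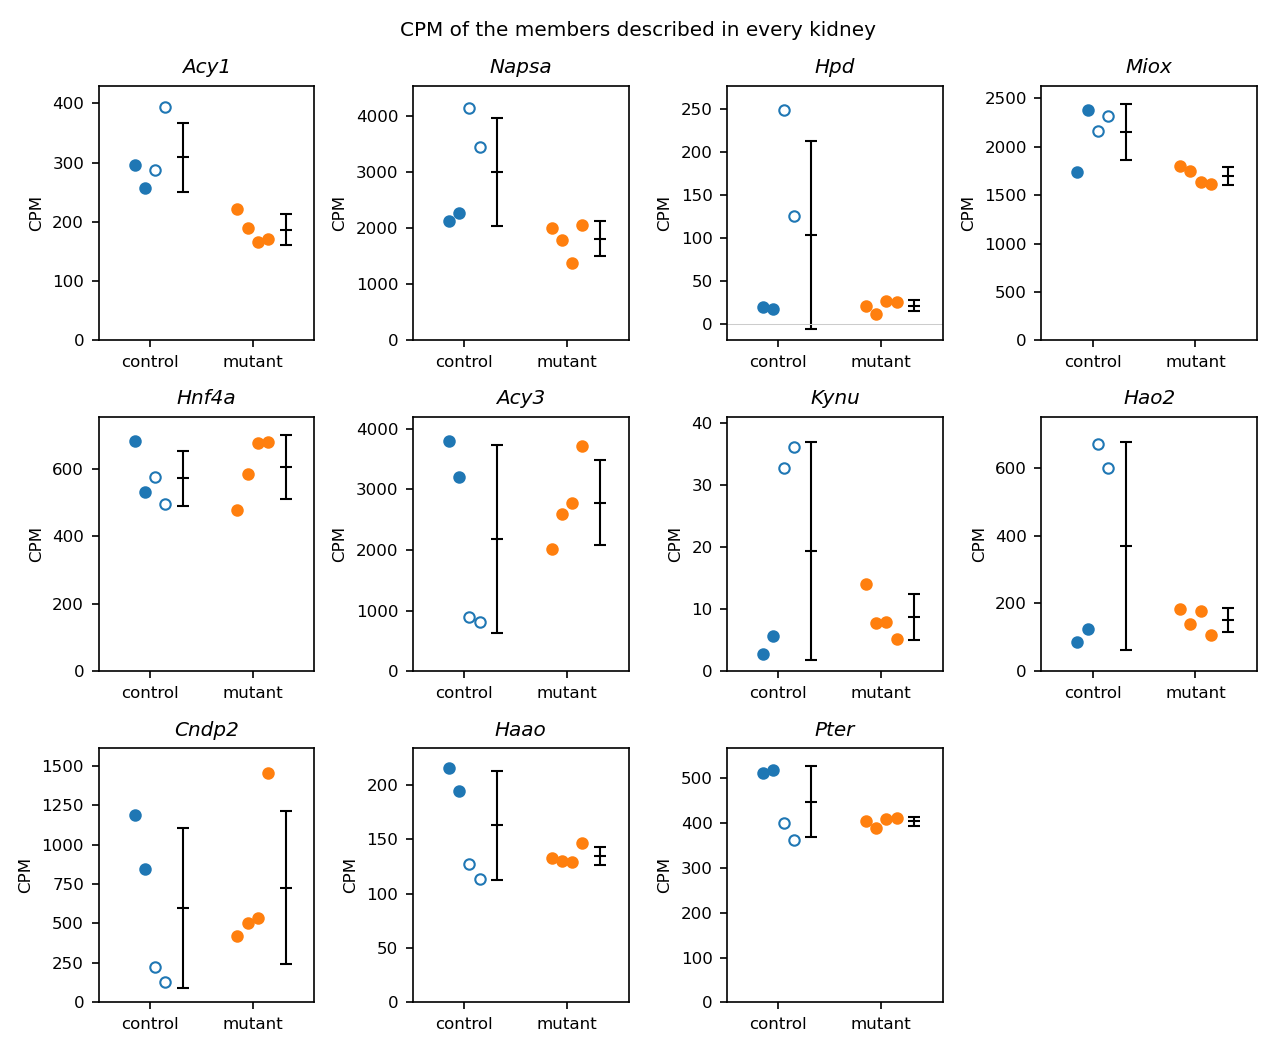
Each panel gives the CPM of 1 member in every kidney, blue for controls and orange for SIK mutants, open where a kidney had no Y-linked reads, with the mean and SD of the group (n = 4) to the right. *Acy1* and *Napsa* show no overlap between the groups, and in *Hpd*, *Acy3*, *Kynu*, *Hao2* and *Cndp2* the 2 open symbols lie apart from the other controls.

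The amino acid group has 10 members. *Hpd* and *Fah* act in tyrosine breakdown, *Gldc* in glycine cleavage, *Sardh* and *Pipox* on sarcosine and pipecolic acid, *Dao* on D-amino acids and *Agxt2* in amino group transfer, while *Gatm* starts creatine synthesis, *Ass1* works in arginine synthesis and *Ddc* makes dopamine. *Hpd* was 19.7 and 17.3 CPM in control 1 and control 2, 248.0 and 125.8 CPM in control 3 and control 4, and 21.1, 11.8, 26.3 and 25.7 CPM in the mutants. The high values were confined to the 2 controls without Y-linked reads. Its log2 fold change of -2.28 over 8 kidneys (SE 0.78, edgeR p = 0.0163, FDR 0.702, exact permutation p = 0.343) became 0.21 (SE 0.29) over 6. The other 9 lay between -0.32 and 0.15 over 8 kidneys. With 6 kidneys, 5 of 10 lay below 0, the range was -0.27 to 0.21 and the median -0.01. *Ass1*, at 1461 TPM the next most abundant member after *Napsa*, had 0.02 and -0.27.

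The brush-border and luminal group has 8 members. *Anpep* (aminopeptidase N), *Dpep1* (a dipeptidase) and the meprin subunits *Mep1a* and *Mep1b* cut peptides, *Ggt1* splits glutathione, *Treh* splits trehalose, *Alpl* is an alkaline phosphatase, and *Tmem27* (collectrin, *Cltrn* in the annotation) is a partner of amino acid transporters. Their log2 fold changes ranged from -0.33 (*Alpl*) to 0.36 (*Ggt1*) over 8 kidneys, with a median of -0.04, and 5 lay below 0. Over the 6 kidneys all 8 lay below 0, from -0.44 (*Mep1b*) to -0.01 (*Mep1a*), with a median of -0.27. *Treh* and *Anpep*, chosen after their values were seen for their p in the 6 kidneys, are given in every kidney. *Treh* was 141.4 and 111.1 CPM in control 1 and control 2, 36.5 and 36.7 CPM in control 3 and control 4, and 77.6 to 102.7 CPM in the mutants, which lay between the pairs of controls. *Anpep* was 220.7, 194.0, 163.7 and 159.3 CPM in the controls and 150.7, 126.1, 166.9 and 173.5 CPM in the mutants. In the comparison of 6, *Treh* had a log2 fold change of -0.44 (edgeR FDR 0.337) and *Anpep* one of -0.42 (edgeR FDR 0.341).

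*Miox*, which opens the ring of myo-inositol, was the second most abundant member at 2328 TPM. It was 1737, 2378, 2161 and 2316 CPM in the controls and 1797, 1745, 1637 and 1610 CPM in the mutants. The mutants lay below 3 of the controls, and 2 of them lay above control 1. The log2 fold change was -0.34 (SE 0.12, edgeR p = 0.0194, FDR 0.713, exact permutation p = 0.0857) and -0.27 (SE 0.14) over 6 kidneys. The other sugar and glycerol enzymes, *Khk* (fructose), *Sord* (sorbitol), *Gk* (glycerol) and *Cryl1* (gulonate), lay between -0.17 and 0.02 over 8 kidneys and between -0.33 and -0.22 over 6. The 2 enzymes of pyrimidine breakdown, *Dpys* and *Upb1*, had -0.24 and -0.10 over 8 kidneys and 0.11 and -0.24 over 6.

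*Hnf4a* (ENSMUSG00000017950, chr2:163506808-163572910 on the plus strand of GRCm38) was 684.6, 533.3, 575.7 and 495.6 CPM in the controls and 479.5, 585.5, 678.4 and 679.1 CPM in the mutants. The groups overlapped throughout. The means were 572.3 ± 81.7 and 605.6 ± 94.9 CPM (SD, n = 4), with a log2 fold change of 0.08 (95% interval -0.25 to 0.41, edgeR FDR 0.949, exact permutation p = 0.657). For the 6 kidneys it was 0.0023 (-0.37 to 0.37), so changes of either sign within these bounds could not be told from none, and the sign turned to -0.0030 with the Y-linked covariate.

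Promoter windows of 250 bases before to 50 after a start site (RefSeq, GRCm38.p6) matched 33 of the 39 members, *Mep1b*, *Kynu*, *Cndp2*, *Napsa*, *Ttc36* and *Dpys* being without an entry. They were searched on both strands for CAAAGTCCA and CAAAGGTCA, cores bound by HNF4, for TTAATNATT, part of the HNF1 motif, and for TGACGTCA, the cAMP response element bound by CREB, whose CRTC coactivators are SIK substrates. The first was found in 4 of 33 members (*Agxt2*, *Nat8*, *Pipox* and *Treh*), or 12.1%, and in 0.555% of the 27025 genes in the set. The second was found in 0 members and 0.544% of genes, the HNF1 letters in 1 member (*Tmem27*, 2 overlapping matches) and 1.72% of genes, and the cAMP response element in 1 member (*Ggt1*) and 2.03% of genes. The lines below give the 100 bases before the start site, 5′ to 3′ on the gene's strand, for *Acy1*, whose groups did not overlap, and for the 4 members with a match in that stretch, which is in capitals.
Acy1 chr9:106438237-106438336 (minus strand): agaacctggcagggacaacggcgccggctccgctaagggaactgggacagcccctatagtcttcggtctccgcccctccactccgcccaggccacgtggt
Treh chr9:44673133-44673232 (plus strand): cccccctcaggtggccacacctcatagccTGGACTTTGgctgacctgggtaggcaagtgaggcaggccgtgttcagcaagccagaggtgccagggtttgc
Agxt2 chr15:10358433-10358532 (plus strand): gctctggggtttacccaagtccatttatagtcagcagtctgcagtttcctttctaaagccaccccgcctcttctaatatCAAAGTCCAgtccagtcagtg
Tmem27 chrX:164090087-164090186 (plus strand): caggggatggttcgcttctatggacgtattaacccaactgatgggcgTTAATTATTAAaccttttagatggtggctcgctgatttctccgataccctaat
Ggt1 chr10:75571460-75571559 (plus strand): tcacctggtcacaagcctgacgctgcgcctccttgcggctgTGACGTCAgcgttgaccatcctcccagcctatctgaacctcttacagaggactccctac
The matches lie 71 to 63 bases before the start in *Treh*, 21 to 13 in *Agxt2*, 53 to 43 in *Tmem27* and 59 to 52 in *Ggt1*. *Agxt2* has another listed start site, and the same letters lie 67 to 59 bases before it. *Acy1* holds none of these letters in its window. Over the 6 kidneys the members with the HNF4 letters had log2 fold changes of -0.44 (*Treh*), -0.40 (*Nat8*), -0.15 (*Pipox*) and 0.05 (*Agxt2*), and over the 8 kidneys 0.18, 0.28, 0.06 and 0.11.

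Between the controls without and with Y-linked reads, which are 2 kidneys each, the difference is described and was not tested. Both controls without Y-linked reads lay below both others in 22 of 39 members, where 29.7% of all tested genes did, and above both in 7, where 30% did. The 4 members furthest apart by ratio were *Hpd*, 10.1-fold higher without Y-linked reads, *Kynu*, 8.14-fold higher, *Hao2*, 6-fold higher, and *Cndp2*, 5.83-fold lower. *Nat8* was 4.24-fold, *Acy3* 4.08-fold and *Treh* 3.45-fold lower. Some, but not all, of the genes known to differ between the sexes in mouse kidney also had unequal values within the 6 kidneys. *Kap*, higher in males, was 29701 and 23937 CPM in control 1 and control 2, 12964 to 21110 CPM in the mutants, and 9015 and 9409 CPM in control 3 and control 4. *Prlr*, higher in females, was 3.86 and 12.2 CPM, 15.6 to 129.9 CPM, and 301.9 and 280.2 CPM in the same order. *Cyp4b1*, higher in males, overlapped instead, at 2586 and 2385 CPM in control 1 and control 2 and 1819 to 3402 CPM in the mutants. *Cyp2j13*, also higher in males, was 529.1 and 268.7 CPM in those controls and 219.9 to 510.6 CPM in the mutants. Over the 6 kidneys, 5 of the 6 genes listed as higher in males had a log2 fold change below 0. Of 6 genes listed as higher in males 1 was lower at p under 0.05 over the 6 kidneys, and of 3 listed as higher in females 3 were higher, while over the 8 kidneys 0 of either passed, and the 4 Y-linked genes did not pass in either set by edgeR. Their part in the member values was not tested.

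Other genes of the proximal tubule were counted in the same way. Of 25 further genes (transporters, endocytic receptors, brush-border structure and gluconeogenesis), 4 were lower and 0 higher at an unadjusted p under 0.05 over 8 kidneys. Over 6 kidneys, 9 were lower and 1 higher. Of all tested genes, 3.59% were lower and 2.76% higher over 8, and 4.74% and 6.4% over 6. The medians of the 25 were -0.11 and -0.18, and 0 were called at an FDR of 0.05 by edgeR in either. Among those with the lowest p over 8 kidneys were *Slc5a2*, the luminal glucose transporter, with a log2 fold change of -0.67 (edgeR FDR 0.0697, DESeq2 FDR 5.18e-10), and *Slc6a19*, a neutral amino acid transporter, with -0.48. The values with 6 kidneys were -0.66 (edgeR FDR 0.0645, DESeq2 FDR 6.72e-06) and -0.48. Among 13 pathway partners of the members, 1 was lower and 0 higher at that p over 8 kidneys and likewise over 6, beside the same shares of all genes. *Amt*, which works with *Gldc* in glycine cleavage, had -0.38 (edgeR FDR 0.702), *Kmo* of the kynurenine pathway 0.21 and *Hgd* of tyrosine breakdown -0.22, and with 6 kidneys these were -0.30, 0.19 and -0.26.

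Markers of the tissue's cell types were present in both groups, but not all of them in every kidney. *Krt20* was at 0 CPM in control 1 and SIK mutant 2, and *Lep* in controls 1, 2 and 4. *Adipoq*, *Plin1*, *Cidec*, *Cfd* and *Ucp1* were also at 0 CPM in control 1. Over 8 kidneys, *Krt20* and *Lep* failed the filter, so 3 of 4 injury and 6 of 7 adipocyte markers were tested. Over 6, only *Krt20* failed. The 4 proximal tubule markers (*Lrp2*, *Cubn*, *Slc34a1* and *Slc5a12*) summed to 8304 to 8776 CPM in the controls with Y-linked reads and 6327 to 7031 CPM in those without. The mutants, at 5914 to 7133 CPM, lay below the first pair and overlapped the second. Most of each sum was *Slc34a1*, at 3943 to 5141 CPM in the mutants and 6321, 6850, 4144.5 and 4709 CPM in controls 1 to 4. The markers' log2 fold changes over 8 kidneys were -0.05, -0.10, -0.28 and -0.11. With 6 kidneys they were 0.08, 0.02, -0.52 and -0.07, and *Slc34a1*, the phosphate transporter NaPi-IIa, was the one lower at p under 0.05 (edgeR FDR 0.241, DESeq2 FDR 0.00656). At an unadjusted p under 0.05 over 8 kidneys, 1 marker was higher in each of the lists for thick ascending limb, leukocyte, adipocyte and tubular injury, and 1 was lower in each of those for distal convoluted tubule and intercalated cells, while 0 passed for proximal tubule, principal, podocyte, endothelial, stromal and blood markers. With 6 kidneys, all 7 adipocyte markers were higher at that p. So were 2 markers each of thick ascending limb, principal cells, stroma and injury, and 1 each of podocytes and leukocytes. Lower were 1 proximal and 1 distal convoluted tubule marker, and 0 intercalated, endothelial and blood markers passed. In 5 members, *Dpep1*, *Treh*, *Hpd*, *Upb1* and *Ttc36*, another gene with over 20% of the member's mean count over 8 kidneys overlaps the gene body. Since the use of strand is not stated, their counts are less certain. The share was highest for *Upb1*, where *Gucd1* had 111% of its counts. For *Hpd*, *Psmd9* had 35.2%. Control 3 and control 4 raise the mean of *Hpd*, so this share may be larger in the 6 kidneys with Y-linked reads.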

How the data were processed

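RNA was extracted from whole kidneys of 4 control and 4 SIK mutant mice and sequenced as DNA nanoballs on a BGISEQ500. Per the submitters' processing notes, FastQC, STAR 2.7.2b, RSEM 1.3.0, DESeq2 and the mm10 build were used. The authors deposited a gene table per kidney with expected counts, RSEM's unnormalised estimate of the reads of each gene, and TPM, scaled by RSEM for gene length and library total. The deposited tables also hold 2 other values of RSEM, the effective length and the posterior standard deviation of the count, which was at most 0.118% of the count in any member. The annotation and the use of strand are not given in the sources used here.

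Expected counts were rounded and tested with edgeR 4.0.16 in R 4.3.3 (TMM factors, filterByExpr, quasi-likelihood F test, Benjamini-Hochberg over all 14326 tested genes). CPM use the TMM factors, and the CPM of single members were compared by exact permutation, two-sided, over 70 assignments. Symbols came from GENCODE M21 (GRCm38). The members and gene lists, with 12 marker lists among them, were chosen with earlier results of these data known. The values of 1 listed gene are not reported here. Values in every kidney are given for members with an unadjusted p under 0.05 or no overlap between groups, *Hnf4a*, the 3 highest in TPM and the 4 furthest apart between controls with and without Y-linked reads. *Haao*, *Pter*, *Treh* and *Anpep* were added after their values were seen. Alternatives were RLE factors, omission of the filter, a minimum mean count of 50, DESeq2 1.42.0, limma 3.58.1 (voom, or trend on log2(TPM + 1)), an effective-length offset, the replicate number as a block, a Y-linked covariate, only the 6 kidneys with Y-linked reads and leaving out each kidney. Library-total scaling, and the alternatives within the 6 kidneys, were added after seeing the data. The study's methods state that mice of both sexes were used, with littermates lacking Cre as controls. The labels tie no kidney to a sex or litter, so p-values measure the spread between these mice. With all controls and no Y-linked covariate, this spread and the SD include the controls' split by Y-linked reads. No mutant shares that split, so these p-values and SD do not measure the spread between like mice alone. The 12 within-group pairs differed beyond sampling noise (chi-square per degree of freedom 9.06 to 49.5). Libraries had 10179648 to 10925100 counts, and 3 counts, the floor, are 0.263 to 0.304 CPM, which covers counting error only.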

Additional observations from a re-analysis of the deposited data

Results flagged for a closer look

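*Cndp2* stood out in SIK mutant 4, at 1452 CPM where the other mutants lay between 419.0 and 532.4 CPM. The gap to the nearest mutant was 0.89 of the group's range. This was the only such case among 22 groups of 4 kidneys, of which chance marks about 1 in 20.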

How the results depend on the processing

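Members called lower at an FDR of 0.05 numbered 0 by edgeR, 1 with DESeq2 and 3 with DESeq2 over the 6 kidneys with Y-linked reads, and members called higher numbered 0 in every setting. Members lower at an unadjusted p under 0.05 numbered 4, and 1 with limma-trend on TPM, 7 with the Y-linked covariate, 8 over the 6 kidneys and 16 there with DESeq2, while leaving out each kidney gave 4 to 9, the 9 without control 1. Members higher at that p numbered 0, and 2 with limma-trend on TPM, 2 with the covariate, 1 over the 6 kidneys and 2 there with DESeq2, with 0 to 2 without each kidney, the 2 again without control 1. Within the 6 kidneys the lower count of 8 became 5 by library total and 2 on TPM, and 6 to 16 when each mutant was left out. Over all tested genes, both directions together, 911 of 14326 passed that p over the 8 kidneys and 1184 on TPM. With each kidney left out 593 to 1181 passed, and with the covariate 1732. In the 6 kidneys 1640 of 14719 passed, 1291 with DESeq2, 2257 by library total, 2212 on TPM and 1193 to 2251 with each mutant left out. These totals join both directions, so they are not like shares for the counts of lower members. By library total and on TPM, the median of all genes over the 6 kidneys was itself above 0, at 0.15 and 0.17. The median of the 39 members ranged from -0.16 to -0.0016 without each kidney and, over the 6 kidneys, from -0.29 to -0.20, with -0.10 by library total and -0.034 on TPM. When 1 control is left in the 6-kidney fits, it is assumed to vary like the mutants. The cause of these shifts was not tested.

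Direction turned under the Y-linked covariate, over the 6 kidneys and there with DESeq2, in this order, for *Hpd* (0.26, 0.21 and 0.21), *Acy3* (-0.34, -0.33 and -0.33), *Kynu* (1.07, 1.06 and 1.06), *Hao2* (0.55, 0.53 and 0.53) and *Cndp2* (-0.46, -0.48 and -0.48). *Cndp2* ranged from -0.30 to 0.86 when each kidney was left out and turned without control 4 (-0.05) and without SIK mutant 4, and *Hnf4a* with the covariate (-0.0030) and with DESeq2 over the 6 kidneys (-0.00039). *Acy1*, *Napsa*, *Miox*, *Haao* and *Pter* kept their direction under all 20 alternatives. With the replicate number as a block, 3 members were lower at p under 0.05, where 657 of the 14326 tested genes passed in either direction. In that fit 0 members and 0 of all genes were called, and the members' median was -0.01. Same-numbered kidneys correlated at -0.25 to 0.06 in their deviations from the group means. The controls' deviations include their split by Y-linked reads, which no mutant shares, so this cannot show whether the numbers pair the samples. The 95% interval of a member's log2 fold change reached, at the median, 0.44 to either side over 8 kidneys and 0.33 over 6, which limits what these numbers of kidneys could show.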

Other observations

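SIK mutant 4 often held the highest value of the mutants among the 39 genes. It had the highest CPM of the 4 mutants in 23 of 39 members, with 7 in mutant 1, 3 in mutant 2 and 6 in mutant 3. It also had the lowest TMM factor of the mutants, 0.96, and the highest *Slco1a1*, 179.7 CPM where the other mutants had 12.4 to 61.5. Among the controls, control 1 was highest in 19 members and control 2 in 10, and control 3 and control 4 in 5 each. These counts were not made over all tested genes. They cannot show whether the pattern is particular to the members or shared by the whole library.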
